A study of Macaca mulatta with 6 samples.

Results

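The genes described here encode proteins that shape the light-sensing outer segment of rods and cones, or that build and serve the cilium joining the outer segment to the rest of the cell. The list held 39 genes. Each was represented by the probe set that carried its symbol in the platform annotation and, where there were several, by the one with the highest mean signal. Of the 39 genes, 27 were found, through 42 probe sets, among 14132 named genes and 52024 probe sets on the array. ROM1, PRCD, RP1L1, RPGR, RP2, IMPG1, EYS, CRB1, BBS1, BBS2, TTC8 and IFT57 were not analysed here. The samples were both retinas of 3 male rhesus macaques aged 8 to 10 years. Under ketamine and pentobarbital anesthesia 1 optic nerve of each animal was irradiated within the orbit by gamma knife, and the eyes were removed 24 h later. The 3 treated retinas lay on the side of the nerve that was prescribed 15 Gy, and the 3 control retinas were those of the other eye of the same animals, so each monkey gave a pair. The treated eyeballs reached 3 Gy and the control eyeballs 1 Gy, which means that the control retinas also received radiation. RNA came from the temporal side of each retina, dissected free of the pigment epithelium, and each retina had a rhesus macaque expression array (Affymetrix) to itself. A level is given as the log2 of the MAS 5.0 signal, and a difference is the treated minus the control level, averaged over the 3 pairs.

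The outer segment is a stack of membrane discs, held in shape at the rim by the tetraspanin peripherin and renewed throughout life from its base. It grows from a modified primary cilium, whose connecting part is the only route by which proteins made in the inner segment reach the discs. Intraflagellar transport particles, drawn by kinesin-2 motors, and the BBSome, a sorting complex of the Bardet-Biedl syndrome proteins, keep that traffic in order. Variants in many of these genes cause retinitis pigmentosa, Leber congenital amaurosis, Usher syndrome or Bardet-Biedl syndrome in humans.

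The median log2 signal of the arrays lay between 6.44 and 6.98 in treated retinas and between 6.69 and 7.03 in control retinas. Dim probe sets, with a log2 signal under 5, were most frequent on the treated array of pair 2, at 29.7%, and made up between 22.6% and 25.9% of the other arrays. Photoreceptor markers were bright in all retinas. The 11 rod markers that were measured, of 13 listed, had mean log2 signals from 11.11 to 15.43, and the 9 cone markers, of 12 listed, from 7.59 to 15.04. Markers of the pigment epithelium were also seen although that layer was dissected away, with 10 of 14 measured at 5.24 to 13.02. The highest of them was RLBP1, which Müller glia also make, and the lowest were TYR (5.24) and DCT (5.25). Among the 27 members only KIF3A had a mean log2 signal under 5, and the other 26 were above that level. Signals of different probe sets depend on their probes, so rankings and sums of them here do not give relative amounts of RNA.

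No outer segment or cilium gene passed the test between treated and control retinas. By limma on the pairs, with p adjusted by Benjamini-Hochberg over all probe sets, 0 of 27 members were called at 0.05, where 0.111% of all probe sets and 0.212% of named genes were. The smallest adjusted p belonged to RPGRIP1, which anchors the retinitis pigmentosa GTPase regulator in the connecting cilium. At an unadjusted p under 0.05, 2 members were lower (RPGRIP1 and PROM1) and 0 were higher, against 3.77% of all probe sets and 3.01% of named genes lower, and 2.97% and 5.02% higher. By the methods' paired t-test 4 were lower and 0 higher at that threshold, with TULP1 and UNC119 added, and 0 after adjustment. The differences were small: 25 of the 27 members had a 95% interval that lay between −1 and 1 on the log2 scale, which is to say within a 2-fold change either way. The intervals of CDHR1 and KIF3A reached further.

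More members lay below than above their controls. The log2 difference was below 0 in 19 of 27 members, or 70.4%, against 54.6% of all probe sets and 44.5% of the named genes with 1 probe set each. Treated values were below control values in 3 of 3 pairs for 9 members, or 33.3%, against 16.1% of all probe sets and 13.6% of named genes. They were above in 3 of 3 pairs for 3 members, or 11.1%, against 13.0% of all probe sets and 19.3% of named genes. The median difference of the 27 members was −0.12, beside −0.04 over all probe sets and 0.03 over named genes. Within pairs 1 to 3 the median over members was −0.15, 0.01 and −0.04. Over all probe sets it was −0.00, −0.14 and 0.01, and over named genes 0.04, 0.07 and −0.00. In pair 2 the members' median was therefore above that of all probe sets, though below that of named genes. The count of members below 0 moved with the scaling. With the median of every array set to the same level, 15 members lay below 0 and 12 above, with a median of −0.02, beside 0.06 over all probe sets. After quantile normalization 18 lay below and 9 above, with a median of −0.12, beside −0.00 over all probe sets. The members' median was thus below that of all probe sets as deposited and after quantile normalization. Centring adds the same amount to every difference, so it could not change that gap and is no separate check. The share of all probe sets below 0 was not counted in either of the other scalings.

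**Figure D1:**
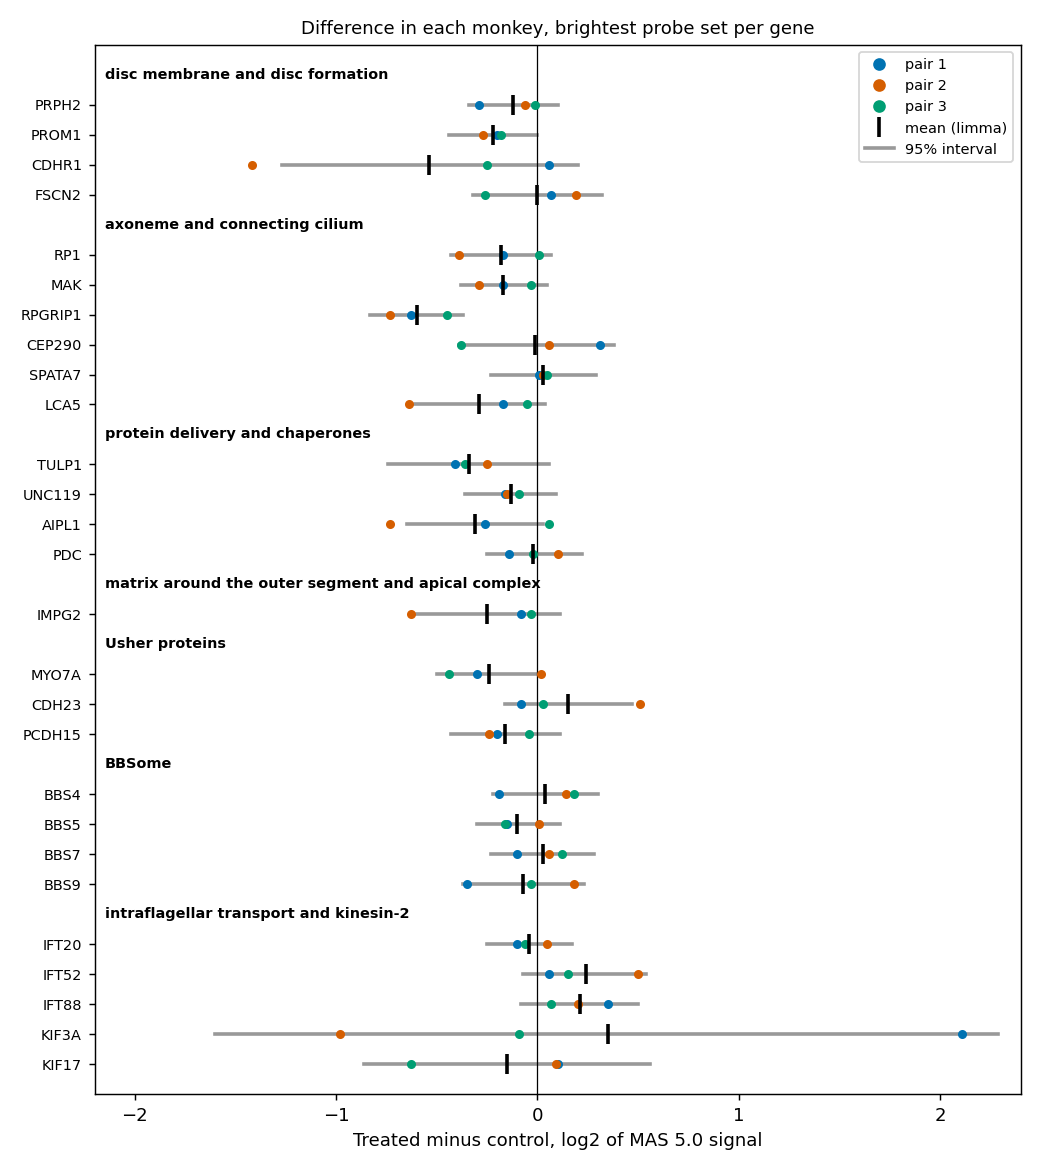
Treated minus control difference of the log2 MAS 5.0 signal for the 27 genes, grouped by role, with 1 colored point for each of the 3 pairs, a black tick for their mean and a grey bar for the 95% interval from limma. RPGRIP1 stands furthest to the left of 0 with all 3 pairs together, while the pairs of CDHR1 and KIF3A are spread widely.

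The disc genes gave a median difference of −0.17 over the 4 that were measured, and of −0.07 with the arrays centred. PRPH2 encodes peripherin, the tetraspanin of the disc rim. Its log2 signal was 12.13, 12.55 and 11.36 in the treated retinas of pairs 1 to 3, against 12.43, 12.61 and 11.36 in the control retinas. Both retinas of pair 3 were thus the lowest of their group, and the groups overlapped. The difference was −0.12 (SE 0.10, 95% interval −0.34 to 0.10, adjusted p = 0.803 from limma). PROM1 encodes prominin, a membrane protein of the young discs at the base of the outer segment. It stood at 14.37, 14.44 and 14.52 in treated retinas and at 14.58, 14.72 and 14.70 in control retinas. Here the groups did not overlap, as was the case for 2 of 27 members and for 6.63% of all probe sets or 6.99% of named genes. The difference was −0.22 (SE 0.09, 95% interval −0.44 to −0.00, unadjusted p = 0.0496, adjusted p = 0.739), a fold of 0.859. A second, dimmer probe set of PROM1 gave −0.24 (unadjusted p = 0.0232), with 11.92 ± 0.64 in treated and 12.16 ± 0.60 in control retinas (SD, n = 3 each), and lay below its control in 3 of 3 pairs as well.

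CDHR1, a photoreceptor cadherin found at the base of the outer segment, was carried by 1 pair. Its log2 signal was 7.98, 6.69 and 7.04 in treated retinas and 7.92, 8.11 and 7.29 in control retinas. Only the treated retina of pair 2 stood far from its control, by −1.42, and the other pairs gave 0.06 and −0.25. The mean difference of −0.54 (SE 0.32, adjusted p = 0.754) was −0.10 without replicate 2. FSCN2, the retinal fascin that bundles actin, had the same mean of 9.32 in treated and control retinas.

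The axoneme and connecting cilium genes held the member with the largest difference. RPGRIP1 had log2 signals of 9.92, 10.72 and 11.51 in the treated retinas of pairs 1 to 3, against 10.54, 11.45 and 11.96 in the control retinas. The treated retina was lower in 3 of 3 pairs, by −0.63, −0.73 and −0.45. The monkeys differed more than the retinas of 1 monkey did, so the groups overlapped. Pairing removed that spread, and the mean difference was −0.60 (SE 0.10, 95% interval −0.83 to −0.37), a fold of 0.660 (0.562 to 0.774). It did not pass after adjustment (unadjusted p = 3.66e-04, adjusted p = 0.145), and RPGRIP1 had no other probe set on the array to compare. Without replicate 2 it passed (difference −0.54, adjusted p = 0.0216), in a setting that called 222 of all probe sets, against 58 with all pairs kept. Over the other alternatives its adjusted p lay between 0.104 and 1.

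RP1 encodes a doublecortin protein of the photoreceptor axoneme, and MAK a kinase that acts on it and on the length of the cilium in mice. RP1 stood at 13.42, 14.37 and 14.83 in treated retinas and at 13.59, 14.76 and 14.82 in control retinas. MAK stood at 12.80, 13.27 and 13.68 in treated retinas and at 12.97, 13.56 and 13.71 in control retinas. For both genes pair 1 was the lowest and pair 3 the highest in either group, and in pair 3 the treated and control retinas were nearly equal. The difference of RP1 was −0.18 (SE 0.11, adjusted p = 0.754), and its second probe set gave 0.05, so its probe sets differed in sign. That of MAK was −0.17 (SE 0.09, adjusted p = 0.754), and its dimmer probe set gave −0.36 (SE 0.12, unadjusted p = 0.0184, adjusted p = 0.693).

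LCA5, or lebercilin, a ciliary protein that binds intraflagellar transport particles, had log2 signals of 10.25, 9.21 and 9.79 in treated and 10.42, 9.85 and 9.84 in control retinas. It was lower in 3 of 3 pairs, mostly through pair 2 (−0.64). The mean was −0.29 (SE 0.14, adjusted p = 0.752) by the brighter probe set and −0.13 by the dimmer one. CEP290, a gatekeeper of the transition zone, stood at 9.22, 9.05 and 8.69 in treated retinas and at 8.91, 8.99 and 9.07 in control retinas. Its pairs pointed both ways (0.31, 0.06 and −0.38), and the mean was −0.01 (95% interval −0.39 to 0.38). SPATA7, another protein of the connecting cilium, differed by 0.03, with 9.64 ± 0.31 in treated and 9.61 ± 0.32 in control retinas (SD, n = 3 each), and by 0.09 through its other probe set.

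**Figure D2:**
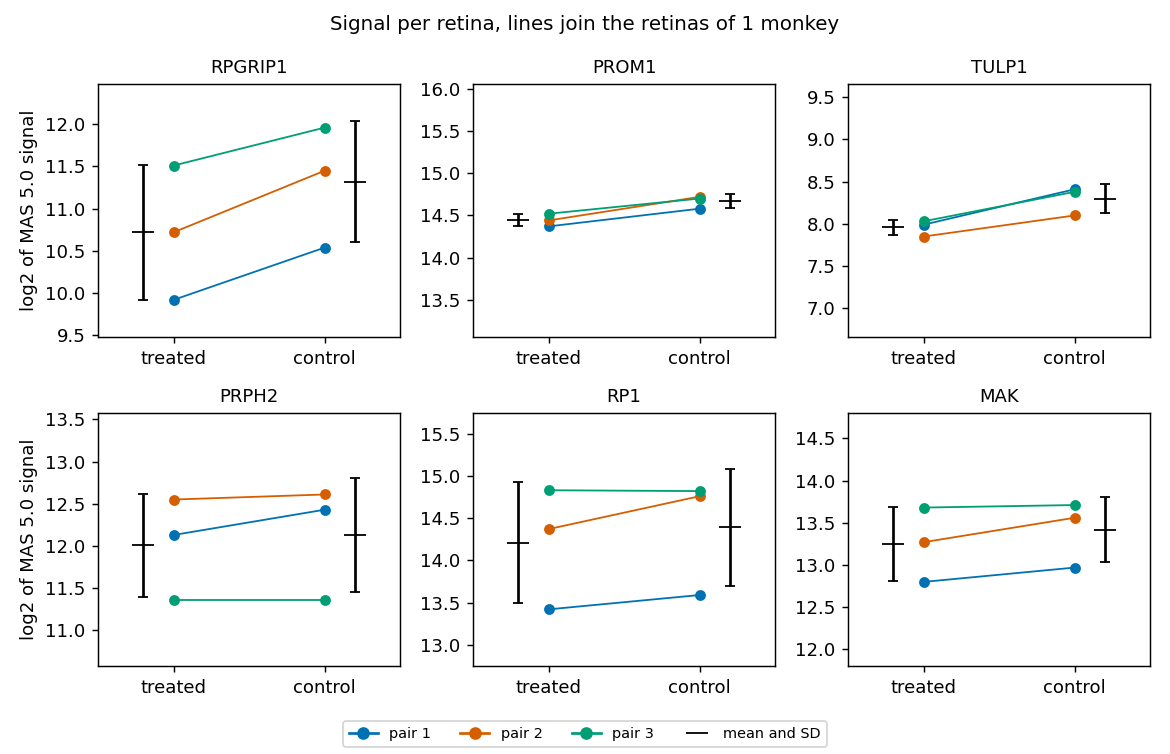
Log2 MAS 5.0 signal of 6 genes in each treated retina (left) and control retina (right), with a line joining the retinas of a pair and the mean ± SD of each group at the sides; every panel spans 3 log2 units. The lines of RPGRIP1 run parallel and upward to the control side, while PROM1 and TULP1 are the genes whose groups do not overlap.

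The genes of protein delivery and chaperones had a median difference of −0.22 over 4 genes, all of which lay below 0. The median was −0.11 without replicate 2 and −0.13 with the arrays centred. TULP1, a tubby-like protein needed for transport of rhodopsin in mice, stood at 7.99, 7.85 and 8.03 in treated retinas and at 8.41, 8.10 and 8.38 in control retinas. Its groups did not overlap, although its interval reached 0 (difference −0.34, SE 0.17, 95% interval −0.74 to 0.06, adjusted p = 0.752). AIPL1 is a chaperone for the phosphodiesterase of the photoreceptor. It gave 13.09, 13.52 and 14.10 in treated retinas and 13.36, 14.25 and 14.04 in control retinas, a difference of −0.31 (SE 0.15, adjusted p = 0.751) that came from pair 2 in the main (−0.73). Its other probe set, with −0.22, −0.15 and −0.13, was more even over the pairs and averaged −0.17. UNC119, a carrier of lipid-bearing proteins, differed by −0.16, −0.15 and −0.09, with 14.80 ± 0.09 in treated and 14.93 ± 0.09 in control retinas (SD, n = 3 each). PDC, or phosducin, which binds the transducin beta and gamma subunits, had a mean of 14.83 ± 0.09 in treated and 14.85 ± 0.13 in control retinas (SD, n = 3 each). Of the genes of the matrix around the outer segment and the apical complex, IMPG2, a proteoglycan of the interphotoreceptor matrix, was the only one measured. Its mean was 9.33 ± 0.17 in treated and 9.58 ± 0.25 in control retinas (SD, n = 3 each). It differed by −0.25 (95% interval −0.60 to 0.11), with −0.63 in pair 2 and −0.08 and −0.03 in the others, and by −0.05 without replicate 2.

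MYO7A, CDH23 and PCDH15 are Usher proteins, a myosin and cadherins known for the links between stereocilia of the inner ear. In the retina MYO7A is made by the pigment epithelium as well as by photoreceptors. MYO7A had log2 signals of 10.47, 11.13 and 11.34 in treated and 10.77, 11.11 and 11.78 in control retinas. The treated retina was lower in pairs 1 and 3 and level in pair 2, and the mean was −0.24 (SE 0.11, 95% interval −0.50 to 0.02, adjusted p = 0.751). The median difference of the 10 pigment epithelium markers was −0.73, 0.06 and −0.34 in pairs 1 to 3, and their part in the MYO7A value was not tested. Its dimmer probe set gave −0.04. PCDH15 averaged 9.45 ± 0.44 in treated and 9.62 ± 0.37 in control retinas (SD, n = 3 each), a difference of −0.16 (95% interval −0.43 to 0.11). CDH23, at 10.31 ± 0.93 in treated and 10.15 ± 0.73 in control retinas (SD, n = 3 each), gave 0.15 by its brightest probe set. The other 3 probe sets gave −0.46, 0.12 and −0.61, and its dimmest probe set, at a mean log2 signal of 4.07, was too dim to be read closely.

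The BBSome genes lay close to 0 as deposited. BBS4, BBS5, BBS7 and BBS9, all subunits of the complex, differed by 0.04, −0.10, 0.03 and −0.07, and their 95% intervals lay between −0.37 and 0.30. Their mean log2 signals over all retinas were 10.54, 12.14, 9.96 and 10.12. BBS5 was also the most even between animals, with 12.09 ± 0.05 in treated and 12.19 ± 0.05 in control retinas (SD, n = 3 each). A second probe set of BBS7 gave 1.12, more than 1 away from the brightest, but its signals were low and uneven. They were 6.43, 5.10 and 6.49 in treated retinas and 5.57, 5.83 and 3.25 in control retinas, and the interval ran from −0.69 to 2.94 (adjusted p = 0.779). The 3 probe sets of BBS9 gave −0.07, −0.13 and −0.13.

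Among the intraflagellar transport and kinesin-2 genes, 2 members stood above their controls in 3 of 3 pairs. IFT52, a core subunit of the particle that moves outward along the cilium, had log2 signals of 9.74, 9.64 and 9.58 in treated retinas and 9.68, 9.15 and 9.43 in control retinas. The difference was 0.24 (SE 0.13, 95% interval −0.07 to 0.54, adjusted p = 0.753), but a dimmer probe set gave −0.08. IFT88, another subunit of the same particle, stood at 9.81, 9.46 and 9.25 in treated retinas and at 9.46, 9.25 and 9.18 in control retinas, a difference of 0.21 (SE 0.12, 95% interval −0.08 to 0.50, adjusted p = 0.754). IFT20, which also works at the Golgi, averaged 11.34 ± 0.32 in treated and 11.38 ± 0.28 in control retinas (SD, n = 3 each), a difference of −0.04 (95% interval −0.25 to 0.17). The kinesin-2 motor subunit KIF17 averaged 6.86 ± 0.40 in treated and 7.01 ± 0.19 in control retinas (SD, n = 3 each), a difference of −0.15. KIF3A, another motor subunit, was dim, at 4.44 ± 0.78 in treated and 4.10 ± 1.02 in control retinas (SD, n = 3 each), and its pairs of 2.11, −0.98 and −0.09 averaged 0.35. The median of the 5 genes was 0.21, but it was −0.01 without replicate 1 and 0.03 when log2 values under 5 were set to 5, so it had no settled direction.

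The animals also differed in their levels of these genes. The range of the 3 monkeys' means, each taken over both retinas, had a median of 0.56 over the 27 members. The same monkey was lowest and the same monkey highest in both groups for 13 members. RPGRIP1 had the widest range, 1.50, followed by CDH23 (1.42), RP1 (1.32) and PRPH2 (1.22). The monkey that was lowest was not always the same one, being that of pair 1 for 13 members, of pair 2 for 4 and of pair 3 for 10.

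Probe sets of 1 gene mostly pointed the same way. Of the 12 genes with several probe sets, 9 had all of them on 1 side of 0, and RP1, CDH23 and IFT52 had both signs. Over all 42 probe sets, 0 were called and 4 were lower at an unadjusted p under 0.05, namely both of PROM1, the dimmer one of MAK and the 1 of RPGRIP1.

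**Figure D3:**
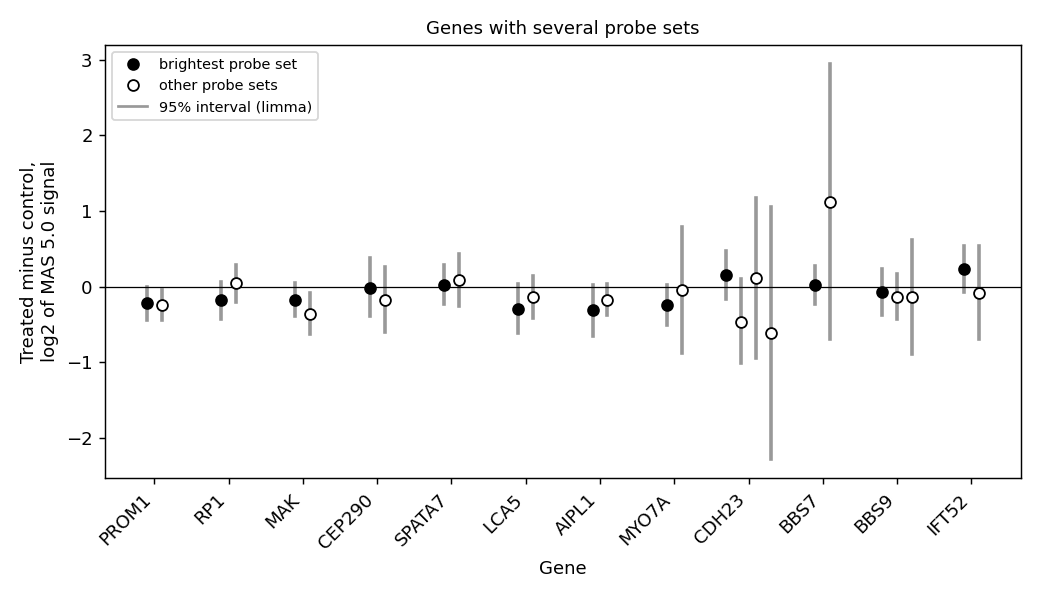
Treated minus control difference of the log2 MAS 5.0 signal for each probe set of the 12 genes that had several, with filled circles for the brightest probe set, open circles for the others and 95% intervals from limma. The circles of PROM1, MAK, LCA5, AIPL1 and BBS9 lie on the same side of 0, and the wide bars belong to dim probe sets of CDH23 and BBS7.

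Markers of the cells that carry outer segments were set beside these genes. All 11 rod markers had a difference below 0, though that of NR2E3 was only −0.00 (unadjusted p = 0.998 by limma). Their median was −0.24, with medians of −0.19, −0.28 and −0.14 in pairs 1 to 3. None was called, and 5 were lower at an unadjusted p under 0.05 (GNB1, PDE6A, PDE6G, CNGA1 and CNGB1), or 45.5%, against 3.01% of named genes. Their summed signal was 233000, 239200 and 278100 in the treated retinas of pairs 1 to 3, against 271500, 285300 and 304000 in the control retinas. The sum was lower in the treated retina of 3 of 3 pairs, while the ranges of the groups overlapped. The median was −0.14 with the arrays centred, a step that raised every difference and so put NR2E3 above 0. The cone markers had 5 of 9 below 0 and a median of −0.04, and their summed signals of 65650 to 88800 in treated and 72640 to 92940 in control retinas overlapped. Whether the number of rods or the RNA per rod differed was not tested, and bulk samples cannot tell these apart.

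Markers of other cell types were read in the same way. GFAP, the intermediate filament of astrocytes and reactive Müller glia, was the 1 marker gene called (difference 2.14, adjusted p = 0.0303), although its dimmer probe set gave 0.10. Its call was lost with no replicate block, without the variance trend, with values under 5 set to 5, by the methods' paired t-test and without replicate 1, where its adjusted p lay between 0.158 and 0.879. The other 3 astrocyte markers gave 0.17 (S100B), 0.12 (ALDH1L1) and 1.66 (PAX2), and PAX2 was dim, with a mean log2 signal of 3.94. Of the microglia and leukocyte markers, 8 of 11 lay above 0 with a median of 0.62, 6 were higher at an unadjusted p under 0.05 (5.02% of named genes were) and 0 were called. Their summed signal was 3203 to 3477 in treated and 2561 to 2855 in control retinas. Of the ganglion cell markers, 7 of 9 lay above 0, with medians of 0.16, 0.26 and 0.24 in pairs 1 to 3. At the unadjusted threshold 4 were higher (44.4%) and 1 was lower (11.1%), against 5.02% and 3.01% of named genes, and 0 were called. Of the Müller glia markers, RLBP1, GLUL and KCNJ10 were lower (42.9%) and SLC1A3 higher (14.3%) at that threshold, and 0 of 7 were called. Of the pigment epithelium markers, 9 of 10 lay below 0, 1 was lower at an unadjusted p under 0.05 and 0 were called. Their summed signal was 11220 to 16630 in treated and 17450 to 21700 in control retinas. RLBP1, which Müller glia also make, held a large part of that sum, and without it the ranges of 5581 to 8672 in treated and 7002 to 10500 in control retinas overlapped. The part of these cell types in the values of the outer segment and cilium genes was not tested. The genes of motile cilia, a separate class from the photoreceptor cilium, had 6 of 10 above 0 and a median of 0.04.

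**Figure D4:**
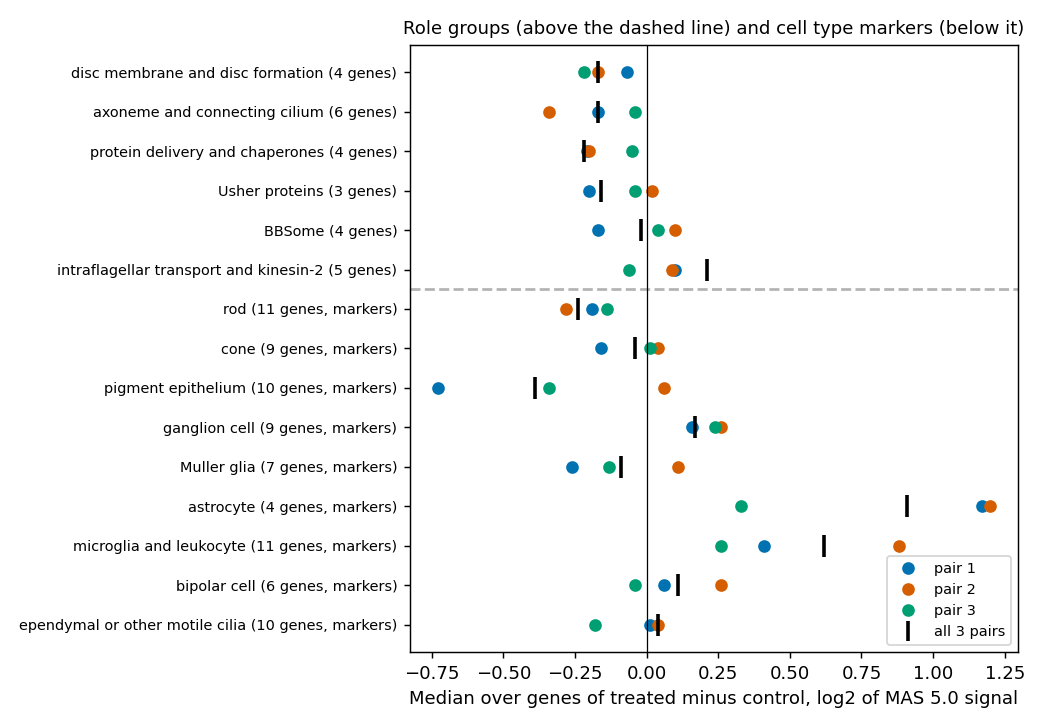
Median over genes of the treated minus control log2 difference, within each of the 3 pairs (points) and for the mean of the pairs (black tick), for the role groups with more than 1 gene above the dashed line and for cell type markers below it. The rod markers lie left of 0 in all pairs, as do the disc, axoneme and delivery genes, whereas the ganglion cell, astrocyte and microglia markers lie right of 0.

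A further list of 100 gene names covered other genes of the same pathway, and 67 of them were measured. None was called by limma. At an unadjusted p under 0.05, 4 of them, or 5.97%, lay higher and 7, or 10.4%, lower, against 5.02% and 3.01% of named genes. The median difference was −0.01. Treated and control values did not overlap for 5 of the 67 genes, beside 6.99% of named genes. The nearest to a call was IFT122, a subunit of the particle that returns along the cilium. It had log2 signals of 11.04, 11.91 and 11.35 in treated retinas, against 10.21, 10.43 and 10.61 in control retinas, with every treated retina above every control retina. The difference was 1.02 (SE 0.15, 95% interval 0.67 to 1.37, a fold of 2.03), with an unadjusted p of 1.70e-04 and an adjusted p = 0.0902. It passed without replicate 2 (0.79, adjusted p = 7.20e-04) and without replicate 3 (1.16, adjusted p = 0.0177). Those settings called 222 and 135 of all probe sets, against 58 with all pairs kept. No other setting called IFT122, the one without replicate 1 included. KIFAP3, the cargo adaptor of kinesin-2, stood at 0.39 (adjusted p = 0.478), while its dimmer probe sets gave 0.16 and −0.65. ARL2, a small GTPase, stood at 0.25 and GUCY2D, a guanylate cyclase of the outer segment, at 0.50 (adjusted p = 0.734 and 0.733). GUCY2F, another such cyclase, stood at −0.38 (adjusted p = 0.754).

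Among the 22 transition zone and basal body genes that were measured, 3 were lower at an unadjusted p under 0.05, or 13.6%, against 3.01% of named genes. TMEM67, or meckelin, a membrane protein of the transition zone, had log2 signals of 10.76, 10.85 and 10.78 in treated retinas and 11.37, 11.33 and 11.22 in control retinas. The groups lay well apart, and the difference was −0.51 (SE 0.09, adjusted p = 0.223). The remaining 5 probe sets of TMEM67 gave −0.66, 0.05, −0.86, −0.05 and −0.07. TMEM67 passed only without replicate 2 (−0.53, adjusted p = 0.0235), where 222 of all probe sets were called. FAM161A, a protein of the connecting cilium and its basal body, stood at 11.25, 10.90 and 11.11 in treated and 11.67, 11.99 and 11.38 in control retinas (difference −0.59, SE 0.16, adjusted p = 0.563). The dimmer probe set of FAM161A gave −0.76. CSPP1, a centrosome and cilium protein, differed by −0.26 (adjusted p = 0.689), where the remaining 4 probe sets gave −0.03, −0.34, −0.67 and −0.16. All 3 genes were lower in 3 of 3 pairs by the brightest probe set.

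The other outer segment proteins had 9 of 12 measured genes below 0 and a median of −0.17. CNGB1, a subunit of the rod channel gated by cyclic GMP, stood at 10.89, 10.57 and 10.99 in treated retinas and at 11.36, 11.49 and 11.36 in control retinas. The groups did not overlap, and the difference was −0.59 (SE 0.12, adjusted p = 0.371). Its dimmer probe set gave −0.72. CNGA1, the other subunit of that channel, differed by −0.24 (adjusted p = 0.728), RDH8, a retinol dehydrogenase of the outer segment, by −0.24 (adjusted p = 0.730), and the rod exchanger SLC24A1 by −0.49 (adjusted p = 0.716). CNGA1 and CNGB1 also stand among the rod markers above.

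**Figure D5:**
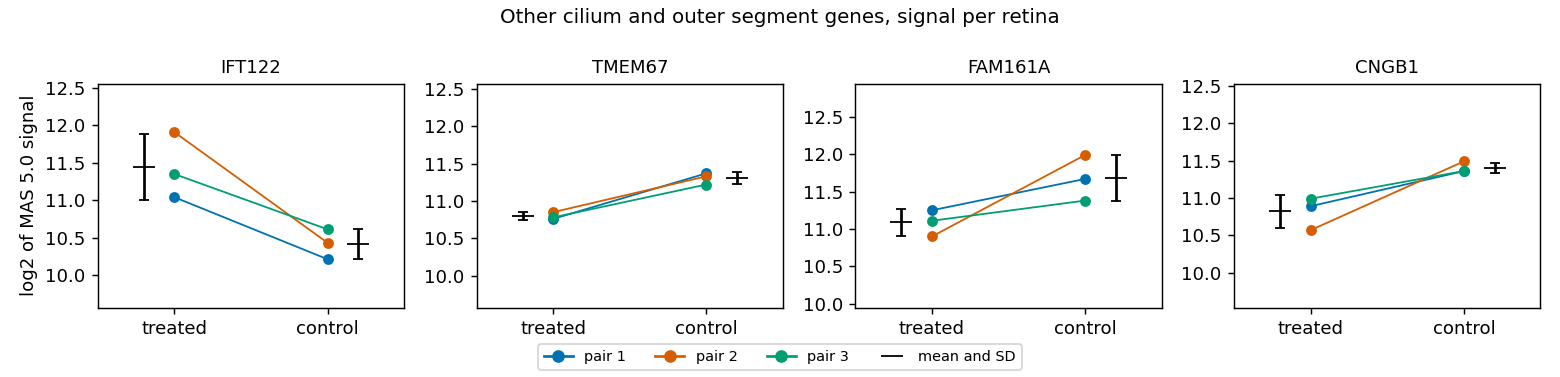
Log2 MAS 5.0 signal of IFT122, TMEM67, FAM161A and CNGB1 in each treated retina (left) and control retina (right), with a line joining the retinas of a pair and the mean ± SD of each group at the sides; every panel spans 3 log2 units. IFT122 is higher in all treated retinas, and the other 3 genes are lower in the treated retina of every pair.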

How the data were processed

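The values used were those that the authors deposited, the log2 of the MAS 5.0 signal of each probe set on 6 arrays, computed with the GeneSpring software. MAS 5.0 scales each array to a common mean, and signals under 1 had been set to 1. GEO's processing notes name the tool without a version. Genes were named through the platform annotation, and in the pathway and marker lists by symbols updated through gene identifiers, which were known for 98.6% of those that carried a single symbol. The treated minus control difference of all 52024 probe sets was fitted by limma 3.58.1 (R 4.3.3), using a trended variance prior, a block for each pair and Benjamini-Hochberg adjustment. Dim probe sets were not filtered. A gene was called at an adjusted p under 0.05. The methods' paired t-test was run on the same values. Arrays with the same replicate number were taken as both retinas of 1 monkey, which the sample titles do not state. Deviations from the group means of arrays with the same number correlated at 0.357, 0.137 and 0.161, against −0.243 to 0.104 for different numbers. The number of arrays limits the precision.

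The members, the role groups and the pathway and marker lists were chosen with earlier results of these data known. Values per retina were given for the 10 members with the smallest unadjusted p, for PRPH2, ROM1, RP1, RPGR and CEP290 where measured, and for members whose probe sets differed by over 1, and the pathway and marker genes named were those called or of the smallest p in each list. Further pathway and rod genes past an unadjusted p under 0.05, GUCY2F and some other markers were named after their values were seen. Alternatives were no replicate block, no trend, 2 other scalings, a filter and a floor at a log2 signal of 5, other choices of probe set, the t-test and leaving out each replicate. The scripts were tested on simulated data. Figures were drawn with matplotlib 3.10.9.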

Additional observations from a re-analysis of the deposited data

How the results depend on the processing

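The count of members called was 0 in all alternatives with 3 pairs, and 0 to 1 when a replicate was left out, the 1 being RPGRIP1 without replicate 2. Members lower at an unadjusted p numbered 0 with no replicate block, 1 with a variance prior without trend or with arrays centred on their median, 4 by the methods' paired t-test, and 1 to 3 when a replicate was left out; 0 were higher in any setting. The median over members was −0.02 with arrays centred on their median. For all probe sets, 0 were called with no replicate block, without the trend, with values under 5 set to 5 and by the t-test, and 17 to 222 when a replicate was left out. Pathway genes called were 0 to 2 when a replicate was left out. Those higher were 1 with no replicate block and 1 without the trend, and 2 to 4 when a replicate was left out. Those lower were 3 with no replicate block, 1 without the trend, 4 with centred arrays and 3 to 11 when a replicate was left out. CEP290 turned to 0.02 after quantile normalization, 0.09 with centred arrays and 0.18 without replicate 3 (−0.16 to 0.18 over the replicates left out), and BBS7 to −0.02 without replicate 3. The other 12 members given per retina kept their direction in the settings run, although single dimmer probe sets of RP1 (0.05) and IFT52 (−0.08) had the other sign. Averaged over all its probe sets, BBS7 stood at 0.57. In settings added after seeing the data, the rod markers lower at an unadjusted p, 5 as deposited, numbered 1 with no replicate block, 0 without the trend, 1 with centred arrays, 2 with values under 5 set to 5 and 2 without replicate 1. With centred arrays the medians of the disc, axoneme, delivery and Usher genes were −0.07, −0.08, −0.13 and −0.07. The median of the BBSome genes, −0.02 as deposited, was 0.08 with centred arrays and 0.08 without replicate 1. Centring adds the same amount to every difference, so the shifts of differences and medians with centred arrays follow from that step. The cause of the other shifts was not tested. Signals under a log2 value of 5, as for KIF3A, limit what could be seen.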
